A study of Mus musculus with 2 samples.

Results

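Of the 739 probes on the arrays, 4 detect the mature microRNAs (miRNAs) miR-26a-5p, miR-26b-5p, miR-103-3p and miR-107-3p, and these are described here. They were selected by their miRBase accessions, MIMAT0000533, MIMAT0000534, MIMAT0000546 and MIMAT0000647, by a rule that uses no measured value, although the families were picked with earlier results of these data known. MiRNA levels were compared between 2 mouse epidermal keratinocyte lines of Balb/c origin. Pam212 is spontaneously transformed and non-metastatic, and LY-1 is a metastatic line derived from it. Neither line was treated, both were cultured to confluency with serum, and 1 array was hybridised for each line with RNA from 1 plate. The study thus has no biological replicate: every value below is a single intensity, no test was possible, and a fold difference describes these 2 arrays and not the spread between cultures.

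MiRNAs guide Argonaute proteins to messenger RNAs, mainly through the seed, bases 2 to 8 of the mature strand, and lower the output of those messages. Both families lie inside protein-coding genes. The miR-26 hairpins sit within genes for small C-terminal domain phosphatases (Ctdsp), which act on RNA polymerase II, and miR-26 is known for limiting proliferation, with the histone methyltransferase Ezh2 among its targets. The miR-103 and miR-107 hairpins sit within genes for pantothenate kinases (Pank), the enzymes of the first step of coenzyme A synthesis. In human breast cancer cells miR-103 and miR-107 are known to target DICER1, the enzyme that cuts miRNA precursors, and in mouse liver and fat they affect insulin sensitivity.

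The mature sequences are shown because the array reports at this level, with the seed in capitals. All 4 matched a RefSeq entry (GRCm38.p6), and they fall into 2 seed groups.
miR-26a-5p: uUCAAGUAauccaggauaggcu
miR-26b-5p: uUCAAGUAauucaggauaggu
miR-103-3p: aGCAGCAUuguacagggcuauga
miR-107-3p: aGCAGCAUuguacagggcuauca
Positions are counted from 1 at the 5′ end of the first-named miRNA. MiR-26a and miR-26b differ by C11U and C21U over 21 compared bases, and miR-26a is 1 base longer. MiR-103 and miR-107 are both 23 bases long and differ only by G22C. All these differences lie outside the seed. Among 1679 mature names in the RefSeq table, the seed UCAAGUA is carried by 2, miR-26a-5p and miR-26b-5p, and the seed GCAGCAU by 2, miR-103-3p and miR-107-3p. Bases 1 to 7 of miR-103 and miR-107, AGCAGCA, are the seed of another 10 entries, among them miR-15a-5p, miR-15b-5p, miR-16-5p, miR-195a-5p, miR-322-5p and miR-497a-5p, so the same letters lie 1 base further from the 5′ end in those miRNAs. The capture probe sequences were not used here, and how far each probe separates miR-103 from miR-107, or miR-26a from miR-26b, was not tested.

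The 4 mature miRNAs come from 6 hairpins, which are shown because 2 of the 4 probes cannot tell their loci apart. The mature miRNA is in capitals and coordinates are of GRCm38.p6.
Mir26a-1, chr9:119031796-119031885, plus strand: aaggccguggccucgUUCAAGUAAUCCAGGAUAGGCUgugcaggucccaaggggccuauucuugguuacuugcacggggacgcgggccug
Mir26a-2, chr10:126995530-126995613, plus strand: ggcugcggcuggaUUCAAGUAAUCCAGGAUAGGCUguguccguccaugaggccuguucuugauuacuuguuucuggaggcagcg
Mir26b, chr1:74394310-74394394, plus strand: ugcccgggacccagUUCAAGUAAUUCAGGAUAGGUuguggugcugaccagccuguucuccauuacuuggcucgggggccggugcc
Mir103-1, chr11:35782396-35782481, plus strand: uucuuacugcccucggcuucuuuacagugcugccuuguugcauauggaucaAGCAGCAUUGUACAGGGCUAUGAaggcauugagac
Mir103-2, chr2:131288052-131288137, plus strand: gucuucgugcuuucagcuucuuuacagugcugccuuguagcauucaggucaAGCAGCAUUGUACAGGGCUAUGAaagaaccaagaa
Mir107, chr19:34820687-34820773, minus strand: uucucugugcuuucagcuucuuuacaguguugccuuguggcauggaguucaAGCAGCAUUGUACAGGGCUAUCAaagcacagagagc
The mature strand lies on the 5′ side of the 3 miR-26 hairpins and on the 3′ side of the 3 miR-103 and miR-107 hairpins. Identical miR-26a-5p is produced from Mir26a-1 and Mir26a-2, and identical miR-103-3p from Mir103-1 and Mir103-2, so each of those probes reads both loci together. Over whole hairpins, pairs within the miR-26 family were 67.4% to 72.5% identical in a global alignment, and pairs within the miR-103 and miR-107 family 80.2% to 83.9%.

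Each hairpin lies within 1 protein-coding gene and on its strand, in an intron by the usual description of these loci. Mir26a-1 is in Ctdspl, 105 kb from the 5′ end of a gene of 118 kb. Mir26a-2 is in Ctdsp2, 16.8 kb into 21.3 kb, and Mir26b is in Ctdsp1, the shortest host, 2.70 kb into 5.68 kb. Mir103-1 lies 12.9 kb into the 21.8 kb of Pank3, Mir103-2 lies 70.0% of the way along the 37.2 kb of Pank2, and Mir107 lies 62.7 kb into the 76.5 kb of Pank1. In the RefSeq start sites used here, Ctdsp2 and Pank1 have 2 annotated starts each and Pank2 has 3. The second start of Ctdsp2 has as its first base the last base of the Mir26a-2 hairpin. Both starts of Pank1 lie downstream of the 5′ end from which the distance of Mir107 was counted. The span of Ctdsp2 also holds the annotated hairpin Mir546, and the related genes Ctdspl2 and Pank4 hold 0 annotated hairpins. The arrays measured no messenger RNA, so the level of the host genes was not analysed here.

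**Figure D1:**
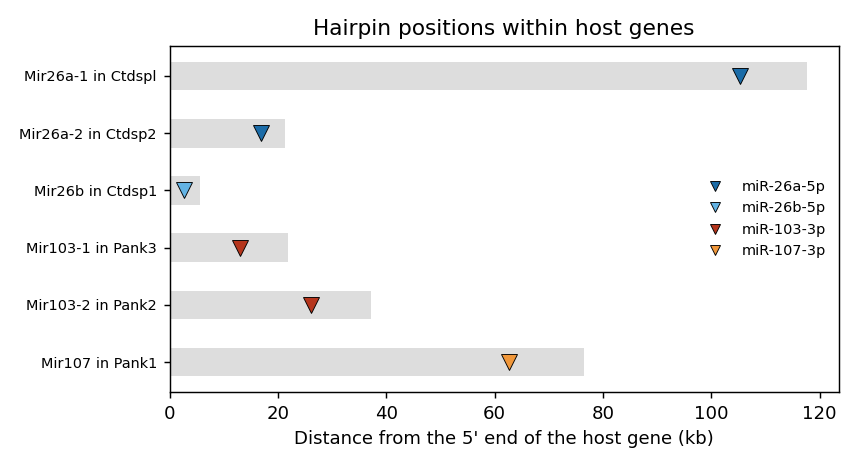
Host genes drawn to scale as grey bars from their 5′ end (horizontal axis, kb), with a triangle at the hairpin coloured by the mature miRNA it yields. The hairpins lie between 47.6% (Mir26b in Ctdsp1) and 89.5% (Mir26a-1 in Ctdspl) of the way along their hosts.

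The deposited value of a probe is an intensity on a linear scale, in units the sources used here do not define. Both arrays gave a value for 354 probes, the 4 described here included. Comparisons with other probes used the 252 that reached a floor of 2.26 on at least 1 array, which is the pooled median intensity. A bright subset of 102 reached 11.0, the pooled 75th percentile, on both. All 4 belong to both sets. Because probes capture their miRNAs with different efficiency, the intensity of each probe is compared only with its own on the other array. Brightness is used to choose these sets of probes and in some of the scalings below. It also shows how far a probe lay above the bottom of the scale. Rows other than these 4 carry accessions with no names in the files, so keratinocyte marker miRNAs, markers of other cell types, the opposite arms of the 6 hairpins and the miR-15/16 relatives were not analysed here by name.

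The probes for miR-103, miR-107 and miR-26a read higher in LY-1, and the miR-26b probe read nearly alike on the 2 arrays. The largest of the 4 differences was that of miR-103-3p. Its intensity was 62.2 on the Pam212 array and 121 on the LY-1 array, which is 1.95-fold or 0.97 on the log2 scale. The miR-107-3p probe, for a miRNA that differs from miR-103 by 1 base, gave 58.1 for Pam212 and 112 for LY-1, which is 1.92-fold or 0.94 on the log2 scale. Both were close to a doubling without reaching it.

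MiR-26a-5p, the miR-26 member with 2 loci, gave 46.2 for Pam212 and 77.3 for LY-1. This is 1.67-fold higher in LY-1 and a log2 difference of 0.74. MiR-26b-5p, from Ctdsp1, gave 11.4 for Pam212 and 12.4 for LY-1, which is 1.09-fold or 0.13 on the log2 scale. The miR-26a probe thus differed between the arrays by more than the miR-26b probe. The miR-26b probe was also the nearest of the 4 to the bottom of the scale, at 12.1 times the lowest Pam212 value and 13.1 times the lowest LY-1 value. The other probes read at least 49.0 times those lowest values. Whether brightness had a part in the difference between the miR-26 probes was not tested.

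**Figure D2:**
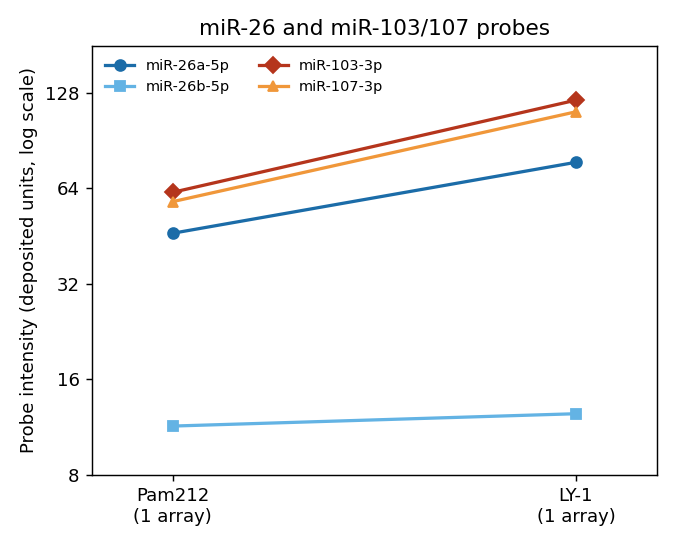
Deposited probe intensity (vertical axis, log scale) of the 4 miRNAs on the Pam212 and LY-1 arrays, 1 point per array, joined per probe. The miR-103-3p line runs from 62.2 to 121 and the miR-107-3p line beside it from 58.1 to 112, miR-26a-5p goes from 46.2 to 77.3, and miR-26b-5p is nearly level at 11.4 and 12.4.

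These differences were of a size that many other probes showed. At a threshold of 2-fold, which is a size and not a test, 0 of the 4 were higher and 0 lower in LY-1, where 12.7% of the 252 probes were higher and 6.35% lower. With a pseudocount of 1.02 these shares were 9.92% and 3.17%, and with both values at the floor they were 9.68% and 3.23% of 186 probes. At 1.5-fold, 3 of the 4 were higher, where 25.0% of the 252 were, and 0 were lower, where 17.1% were. The median log2 difference of the 4 was 0.84, against 0.03 over the 252 and 0.08 over the bright 102. Of the other 251 probes past the floor, 32 had a greater log2 difference than miR-103-3p, 34 than miR-107-3p, 47 than miR-26a-5p and 114 than miR-26b-5p. Within the bright subset those numbers were 10, 11, 17 and 46 of 101. The differences of miR-103-3p and miR-107-3p thus stood in the upper part of the distribution and that of miR-26b-5p near its middle. The SD of the log2 difference over the 102 bright probes was 0.66. It mixes differences between the lines with measurement error, which a single array per line cannot separate.

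**Figure D3:**
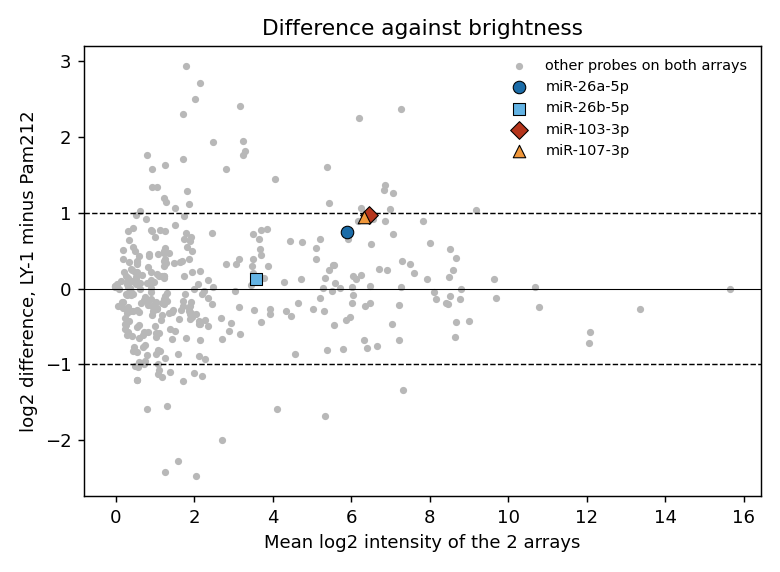
Log2 difference, LY-1 minus Pam212 (vertical axis), against mean log2 intensity of the 2 arrays (horizontal axis) for the 354 probes measured on both, with dashed lines at a 2-fold difference. The 4 miRNAs lie inside the cloud of grey probes, miR-103-3p at 0.97 and miR-107-3p at 0.94 just under the upper line, miR-26a-5p at 0.74 and miR-26b-5p at 0.13.

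Within the 2 seed groups, miR-103 and miR-107 lay close together on these arrays and miR-26a and miR-26b lay further apart. The difference between 2 log2 differences does not change when an array is scaled by a constant. The log2 differences of miR-103-3p and miR-107-3p were 0.024 apart, and those of miR-26a-5p and miR-26b-5p were 0.61 apart. Of the scalings that depend on brightness, quantile normalization moved these gaps to 0.14 and 0.84. After a lowess trend was subtracted they were 0.026 and 0.53, each within 0.1 of the deposited gap. For scale, in the deposited values the median gap between any 2 of the 102 bright probes was 0.58, with 2.17% of their 5151 pairs closer than miR-103 and miR-107, and 52.5% closer than miR-26a and miR-26b. As deposited, the miR-26 probes were about as far apart as bright probes in general. The miR-26b probe only just entered the bright subset, at 11.4 on the Pam212 array against the cutoff of 11.0. Over the 252 probes past the floor the median gap was 0.74. There 1.74% of pairs were closer than miR-103 and miR-107, and 42.9% closer than miR-26a and miR-26b. As deposited, miR-26a-5p stood nearer to the other seed group than to miR-26b-5p, with a log2 difference 0.22 below miR-103-3p and 0.20 below miR-107-3p. After quantile normalization miR-26a-5p was at 0.59, miR-103-3p at 0.72 and miR-107-3p at 0.58, so miR-26a-5p was no longer below miR-107-3p. With the lowess trend subtracted these 3 were at 0.59, 0.82 and 0.79. The mean log2 difference of the miR-103 and miR-107 probes exceeded that of the miR-26 probes by 0.52. Whether signal is shared between the miR-103 and miR-107 probes was not tested, so they are not known to be separate measurements.

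The 4 probes also belong to a set that leaned towards LY-1 as a whole. All 4 have accession numbers under 1000, given to miRNAs registered early. The use of such early-numbered probes as a reference was added after the data had been seen. Of all 252 probes past the floor, 51.6% read higher in LY-1. In the bright subset 56.9% of all probes and 75.9% of the early-numbered ones did. The early-numbered probes past the floor had a median log2 difference of 0.29, and 68.9% of them read higher in LY-1. Measured from that median, miR-103-3p was 0.67 and miR-107-3p 0.65 higher, miR-26a-5p was 0.45 higher, and miR-26b-5p was at -0.17, below the early-numbered median. Among the 57 other early-numbered probes in the bright subset, 9 had a greater difference than miR-103-3p, 10 than miR-107-3p, 15 than miR-26a-5p and 36 than miR-26b-5p. The part of this common lean in the 4 differences was not tested.

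Scaling changed the size of the 3 larger differences and the sign of the smallest. As deposited, the array medians over the 354 probes differed by 0.045 on the log2 scale, so no further scaling was applied to the values above. Over that and 7 other settings the log2 difference ran from 0.67 to 0.97 for miR-103-3p, from 0.58 to 0.94 for miR-107-3p and from 0.45 to 0.75 for miR-26a-5p, all higher in LY-1. For miR-26b-5p it ran from -0.26 after quantile normalization to 0.13, so its direction is not settled by these arrays. None of the 4 reached 2-fold under any of these settings. Of the 3 larger differences, miR-107-3p fell to 1.49-fold after quantile normalization. MiR-26a-5p fell to 1.36-fold with the median of early-numbered probes set to 0, a setting that lowers every probe alike. The share of all probes at 1.5-fold under those 2 settings was not counted, so no count of members is set beside it.

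**Figure D4:**
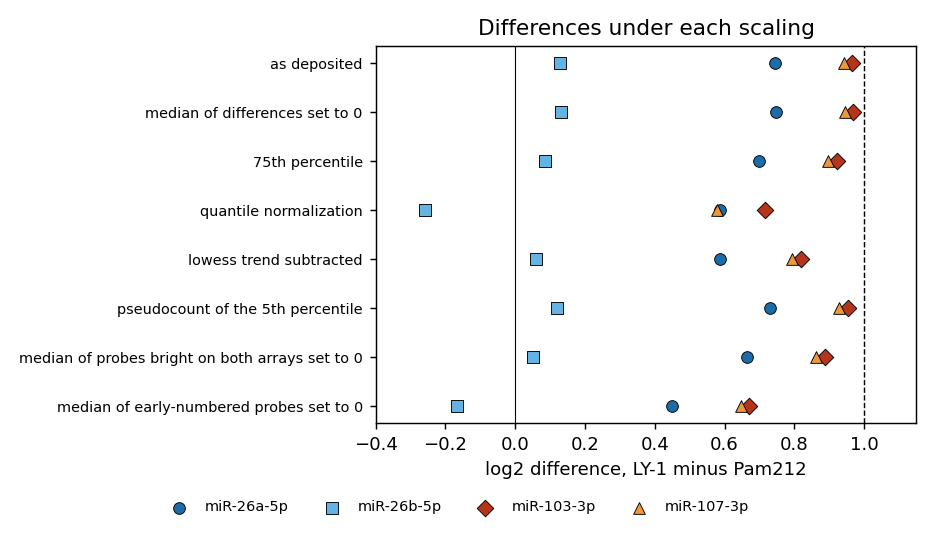
Log2 difference, LY-1 minus Pam212 (horizontal axis), of each miRNA as deposited and under 7 other settings (vertical axis), with a solid line at no difference and a dashed line at 2-fold. MiR-26b-5p falls left of the solid line after quantile normalization (-0.26) and when the median of early-numbered probes is set to 0 (-0.17), and the other 3 miRNAs stay between the lines throughout.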

How the data were processed

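Total RNA from 1 plate per line was Hy5-labelled with a miRCURY LNA kit, per the labels' protocols. The authors deposited a linear-scale intensity for each probe on each array, with null cells. Scanning, background subtraction, the combining of duplicate spots and scaling are not given in the sources used here, and no spot-level value or background was used, so how precise an intensity is remains unknown, and the number of arrays limits it. The log2 difference is LY-1 minus Pam212, computed from the deposited intensities without a pseudocount. The selection rule uses accessions, but the miRNAs and lists were chosen with earlier results of these data known. Names of the 4 miRNAs come from the selection rule. Other rows carry no names in the files, so the planned named lists, comparisons of same-seed probes across the array and of miRNAs inside genes against others were not run. The planned search for probes nearest in intensity is not reported, since brightness differs between probes for reasons of capture. Sequences and gene positions are from RefSeq, GRCm38.p6, matched by miRNA name and gene symbol. Alternatives changed the scaling and the pseudocount (1.02, the pooled 5th percentile), with a lowess span of 0.5. Python 3.11.15, numpy 2.4.6, pandas 2.3.3, statsmodels 0.14.6, Biopython 1.88 and matplotlib 3.10.9 were used.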

Additional observations from a re-analysis of the deposited data

How the results depend on the processing

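Over 7 alternatives for each of the 4 miRNAs, 17 of 28 log2 differences moved by under 0.1, 9 moved by more and 2 changed sign; where a value moved, the cause was not tested. Quantile normalization gave 0.59 for miR-26a-5p, -0.26 for miR-26b-5p, 0.72 for miR-103-3p and 0.58 for miR-107-3p. Subtracting the lowess trend gave 0.59 for miR-26a-5p, 0.82 for miR-103-3p and 0.79 for miR-107-3p. Setting the median of early-numbered probes to 0, added after seeing the data, gave 0.45, -0.17, 0.67 and 0.65 in the same order of 4. Setting the median of the bright probes to 0, also added then, moved none by 0.1. After quantile normalization the miR-26 gap was 0.84 and that of miR-103 and miR-107 0.14, and after lowess they were 0.53 and 0.026. The background counts at 2-fold were 32 higher and 16 lower of 252 (12.7% and 6.35%). They were 17 and 4 of 121 (14.0% and 3.31%) with the brighter value at the 75th percentile, 18 and 6 of 186 (9.68% and 3.23%) when the floor applied on each array, and 25 and 8 of 252 (9.92% and 3.17%) with the pseudocount. The counts were 63 and 43 at 1.5-fold, and 15 and 7 at 3-fold. No paired analysis was possible because each line has 1 array, and no replicate could be left out.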
